A study of Mus musculus with 6 samples.

Results

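The AP-1 transcription factors measured here are 9 genes chosen by symbol out of 30803 rows: the Fos proteins Fos, Fosb and Fosl2, the Jun proteins Jun, Junb and Jund, and the related factors Atf3, Batf and Maff. All 9 symbols were found, once each, and all 9 passed the minimum of 1 FPKM (fragments per kilobase, relative to library size, averaged over all libraries) that a gene needed to be tested. The libraries are poly(A) RNA-seq of hematopoietic stem cells (HSCs), as the labels call them, taken from bone marrow and sorted by surface MHC class II. There were 3 libraries of the MHCII-lo fraction and 3 of the MHCII-hi fraction, all from wild-type (WT) mice aged 5 months. No treatment is named in the labels. The sources used here give neither the other surface markers of the sort nor the sex or number of mice behind a library.

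AP-1 is a dimer of basic leucine zipper (bZIP) proteins. Jun proteins can pair with themselves or with Fos proteins, which need a partner, and the dimer binds short DNA elements in promoters and enhancers. Many AP-1 genes are immediate early genes: their transcription rises within minutes of a growth factor, a cytokine or stress, without new protein synthesis, and their mRNAs are short-lived. In blood cells AP-1 is known for its part in myeloid differentiation, in lymphocyte activation and in responses to inflammation, and its genes are also known to rise when tissue is dissociated and cells are sorted.

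In MHCII-hi, 7 of the 9 transcripts were higher, Atf3 was lower, and Batf did not pass the test. The largest increases were those of Junb and Fosb, each 1.88-fold, followed by Jund at 1.78-fold, Jun at 1.56-fold and Maff at 1.55-fold. Fos rose by 10.7%, the smallest increase among the members that passed. The calls are from limma on log2(FPKM + 1), with a Benjamini-Hochberg adjusted p under 0.05 over all 12295 tested genes. The background of such calls was high: 27.2% of all tested genes were called higher and 40.5% lower. With FPKM rescaled by the median ratio between libraries (median-of-ratios scaling), 33.3% were higher and 32.5% lower, and the members' calls were the same. The median change of the 9 members was 0.56 on the log2 scale, and that of all tested genes -0.08.

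**Figure D1:**
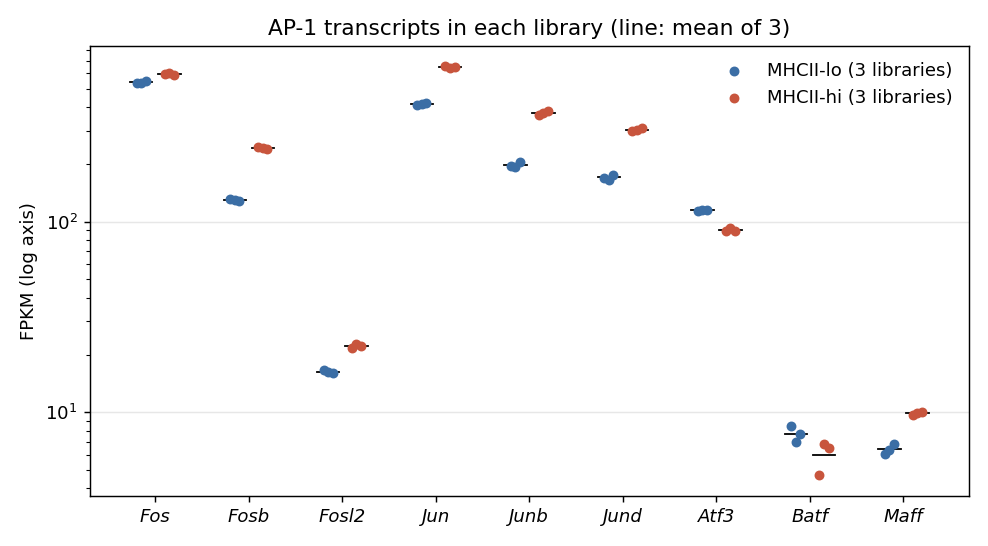
FPKM of each AP-1 transcript on a log axis, with 1 point per library, MHCII-lo in blue and MHCII-hi in red, and a black line at the mean of 3 libraries. The 3 MHCII-hi points lie above the 3 MHCII-lo points for 7 transcripts and below them for Atf3 and Batf.

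Summed over all genes, MHCII-lo libraries held 306496 ± 515 FPKM and MHCII-hi libraries 333432 ± 92.5 FPKM (SD, n = 3 each), a ratio of 1.09. Depth is not stated, but the lowest values of genes with a single annotated transcript fell in steps. If the lowest step is taken as 1 fragment, the MHCII-lo libraries hold about 14300000 to 26300000 fragments and the MHCII-hi libraries 11800000 to 12800000. On that reading the variance between libraries of a group was 1.14 times the counting variance in MHCII-lo against 0.935 times in MHCII-hi for 655 genes at 10 to 100 FPKM. For 125 genes at 100 FPKM or more the ratios were 1.73 and 1.41 (medians). Counting error alone would give a median ratio below 1 for 3 libraries, so these ratios understate the spread beyond counting error. The labels do not say that libraries came from separate mice. The p-values therefore reflect no more than the differences among these libraries, which may be technical. An exact permutation test of 3 libraries against 3 cannot give a two-sided p below 0.1, so single values are compared by whether the groups overlap. All MHCII-hi libraries lay above all MHCII-lo libraries for 7 of the 9 members and for 29.6% of all tested genes, and below them for 2 members and 43.3% of all tested genes, which makes 72.8% without overlap. In bulk libraries, fewer cells of a type and less RNA per cell cannot be told apart.

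All 9 genes are annotated as protein-coding (GENCODE M21, GRCm38). Fos lies on chromosome 12, 85473890 to 85477273, plus strand, and Batf on the same chromosome and strand, 85686669 to 85709087. Junb is on chromosome 8, 84974484 to 84978718, minus strand, and Jund on the same chromosome, 70698949 to 70700616, plus strand. Jun is on chromosome 4, 95049034 to 95052222, minus strand, and Fosb on chromosome 7, 19302696 to 19310051, minus strand. Fosl2 is on chromosome 5, 32135801 to 32157842, plus strand. Atf3 is on chromosome 1, 191170296 to 191218039, minus strand, and Maff on chromosome 15, 79346621 to 79359076, plus strand.

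Promoter windows of all 9 members (RefSeq, GRCm38.p6) were searched on both strands for 6 motifs, since AP-1 genes are themselves targets of cAMP response element (CRE) and AP-1 binding proteins. Each window runs from 250 bases before to 50 bases after an annotated start. Maff has 3 such windows, which gives 11 in all. TGACG, the core of a CRE, was in 7 of the 11 windows, belonging to 6 members (Fos, Fosb, Junb, Atf3, Batf and Maff), and in 20.8% of 32851 windows of all genes. TGACATCA, a form of AP-1 element, was in the windows of Jun and Maff and in 3.62% of all windows. The full palindrome TGACGTCA, which holds TGACG on each strand, was in 1 Maff window and in 1.79% of all windows. The classical AP-1 element TGACTCA was in none of the 11 and in 5.2% of all windows. The CArG box of serum response factor was in none of them and in 1.63% of all windows. Sites farther than 250 bases before a start were not searched, so a motif missing here may lie farther upstream. TATAAA was in the windows of Junb and Fos and in 13.6% of all windows.

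The 130 bases before the start are shown for Fos, Fosb, Jun and Junb, which rose, and for Atf3, which fell, because TGACG or TGACATCA (in capitals) lies close to the start in all 5. They are given 5′ to 3′ on the strand of the gene: Fos at chr12:85473760-85473889 (plus), Fosb at chr7:19310046-19310175 (minus), Jun at chr4:95052223-95052352 (minus), Junb at chr8:84978749-84978878 (minus) and Atf3 at chr1:191183334-191183463 (minus).
Fos: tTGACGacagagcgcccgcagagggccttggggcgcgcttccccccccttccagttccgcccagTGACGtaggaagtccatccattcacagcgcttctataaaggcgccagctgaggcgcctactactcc
Fosb: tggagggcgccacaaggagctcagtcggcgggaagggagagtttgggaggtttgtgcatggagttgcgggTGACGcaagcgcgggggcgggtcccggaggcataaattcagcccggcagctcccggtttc
Jun: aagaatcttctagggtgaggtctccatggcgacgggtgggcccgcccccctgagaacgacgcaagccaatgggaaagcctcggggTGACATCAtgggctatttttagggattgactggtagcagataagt
Junb: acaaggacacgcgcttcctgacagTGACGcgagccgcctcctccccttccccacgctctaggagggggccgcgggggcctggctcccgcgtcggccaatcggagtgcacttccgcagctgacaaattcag
Atf3: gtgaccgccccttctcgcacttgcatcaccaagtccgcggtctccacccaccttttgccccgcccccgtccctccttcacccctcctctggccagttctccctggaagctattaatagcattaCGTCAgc
The motif begins 129 and 66 bases before the start in Fos, 60 in Fosb, 45 in Jun and 106 in Junb. In Atf3 it lies on the opposite strand, 7 bases before the start, and reads as CGTCA on the strand shown. That RefSeq start of Atf3 lies inside the GENCODE span of the gene, and bases before the span's 5′ end at 191218039 were not searched. The motif is therefore present in members of both directions, and these letters are a description of the window, not a measured binding site.

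Fos, the founding Fos protein and a classical immediate early gene, had the highest FPKM of the members in MHCII-lo. Its FPKM was 535.97, 536.34 and 544.76 in the MHCII-lo libraries and 592.72, 605.66 and 592.23 in the MHCII-hi libraries. The groups did not overlap, and Fos ranked 59th of all tested genes in MHCII-lo against 56th in MHCII-hi. The log2 change was 0.15 ± 0.01 (SE; limma adjusted p = 0.000108), and 71.0% of tested genes had a lower change. The rise was 1.11-fold, where total FPKM was 1.09-fold higher. Fos made up 0.175, 0.175 and 0.177% of all FPKM in MHCII-lo against 0.178, 0.182 and 0.178% in MHCII-hi. The log2 change depended on the scaling: it was 0.24 with median-of-ratios scaling, 0.22 with immunoglobulin and mitochondrial genes left out of the scaling and 0.28 with the trend on transcript length removed, all calls. Quantile normalization removed the call, with a log2 change of 0.01 (limma adjusted p = 0.355, against 6.105e-06 to 0.355 over all 16 alternatives).

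Fosb, a second Fos protein that is usually induced after Fos, went from 132.17, 129.67 and 128.29 FPKM in MHCII-lo to 246.04, 243.88 and 241.98 FPKM in MHCII-hi. Every MHCII-hi library was far above every MHCII-lo library, and the log2 change was 0.90 ± 0.02 (SE; limma adjusted p = 7.68e-08). Fosl2, also called Fra-2, is a Fos protein without the transactivation domain of Fos. Its FPKM was 16.65, 16.27 and 16.16 in MHCII-lo against 21.69, 22.94 and 22.43 in MHCII-hi, again without overlap. It rose by 0.43 ± 0.03 on the log2 scale (SE; limma adjusted p = 2.57e-05). Within a library the ratio of Fosb to Fos FPKM rose from 0.241 ± 0.00557 to 0.409 ± 0.00622 (SD, n = 3). Scaling a library by a single factor leaves this ratio unchanged, whereas quantile normalization or removal of the trend on transcript length can change it.

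Jun, the Jun protein with the strongest transactivation domain, had 411.47, 415.73 and 420.5 FPKM in MHCII-lo against 653.63, 642.91 and 645.03 FPKM in MHCII-hi. The log2 change was 0.64 ± 0.01 (SE; limma adjusted p = 1.14e-07), with the groups well apart. Junb, which can restrain Jun and is known as a brake on myeloid proliferation, had 196.88, 194.54 and 204.97 FPKM in MHCII-lo. It reached 365.31, 373.92 and 380.54 FPKM in MHCII-hi, a log2 change of 0.91 ± 0.02 (SE; limma adjusted p = 3.48e-07), the largest of the 9. Jund, the Jun protein that many resting cells express, went from 170.39, 166.3 and 176.52 to 300.16, 301.98 and 310.87 FPKM. Its log2 change was 0.83 ± 0.03 (SE; limma adjusted p = 6.20e-07). All 3 Jun genes thus rose by more than Fos, and their increases exceeded those of 92.4% (Jun), 95.5% (Junb) and 94.9% (Jund) of tested genes.

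**Figure D2:**
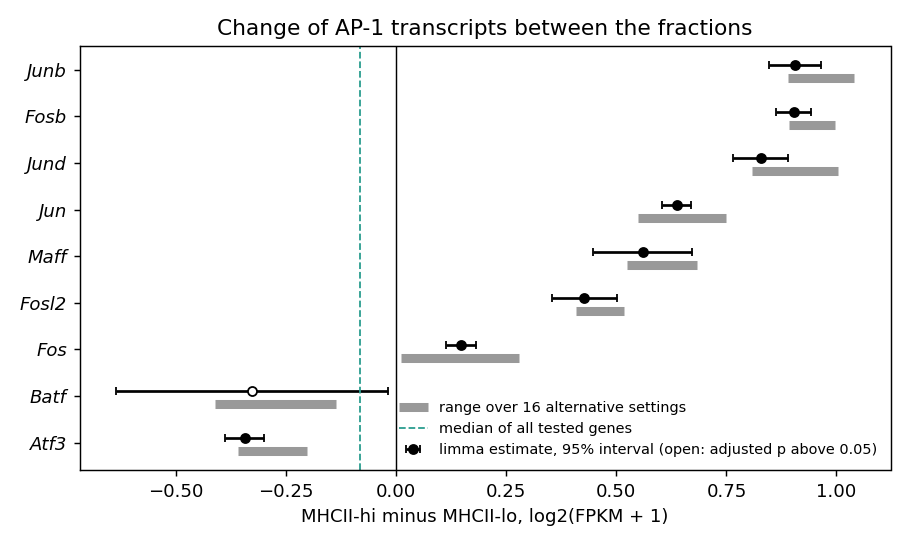
Log2 change of each AP-1 transcript, MHCII-hi minus MHCII-lo on the log2(FPKM + 1) scale, with points and bars for the limma estimate and its 95% interval and grey bars for the range over 16 alternative settings. Junb, Fosb and Jund lie farthest right, Atf3 is below 0 in every setting, and Batf, the open point, has the widest interval.

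Atf3, a stress-induced factor that pairs with Jun proteins and represses many inflammatory genes, moved against the Fos and Jun genes. Its FPKM was 114.58, 115.72 and 114.83 in MHCII-lo against 89.07, 92.2 and 89.96 in MHCII-hi. The groups were clearly apart, and the log2 change was -0.34 ± 0.02 (SE; limma adjusted p = 7.47e-06). Of all tested genes, 23.7% had a still lower change, so a fall of this size was common. Within a library, the ratio of Atf3 to Jun FPKM fell from 0.277 ± 0.00308 to 0.140 ± 0.00358 (SD, n = 3), and that of Atf3 to Fos from 0.213 ± 0.00250 to 0.151 ± 0.00105.

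Batf and Maff are small bZIP proteins that lack a transactivation domain. Batf, which pairs with Jun proteins and binds DNA beside IRF4 or IRF8 in lymphocytes and dendritic cells, had 8.48, 7.03 and 7.67 FPKM in MHCII-lo against 4.68, 6.81 and 6.54 FPKM in MHCII-hi. The groups did not overlap but nearly met, at 7.03 and 6.81 FPKM, and 1 MHCII-hi library lay well below the others. The change was -0.33 on the log2 scale (95% interval -0.64 to -0.02), with an unadjusted p of 0.0408 and a limma adjusted p of 0.0590. Leaving out MHCII-hi library 2 made it a call (limma adjusted p = 0.0381), and leaving out MHCII-hi library 1 reduced the change to -0.18. Maff, a small Maf protein that joins with CNC factors such as NFE2, had 6.05, 6.34 and 6.83 FPKM in MHCII-lo against 9.7, 9.96 and 10.06 FPKM in MHCII-hi. It rose by 0.56 ± 0.05 on the log2 scale (SE; limma adjusted p = 5.54e-05), and its groups were apart. The 2 transcripts changed places in the order of levels.

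FPKM is scaled to transcript length, so the FPKM of the 9 transcripts can be set side by side within a library. Bias particular to a gene, other than length, was not measured, so the order given is one of FPKM. In MHCII-lo the order was Fos, Jun, Junb, Jund, Fosb, Atf3, Fosl2, Batf and Maff, and no 2 neighbours overlapped between libraries. In MHCII-hi Jun stood first and Fos second, at 647 ± 5.68 and 597 ± 7.62 FPKM (SD, n = 3), and again no neighbours overlapped. The ratio of Jun to Fos FPKM was 0.768, 0.775 and 0.772 in the MHCII-lo libraries and 1.10, 1.06 and 1.09 in the MHCII-hi libraries. By FPKM, Jun was therefore the lesser of the 2 transcripts in every MHCII-lo library and the greater in every MHCII-hi library.

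**Figure D3:**
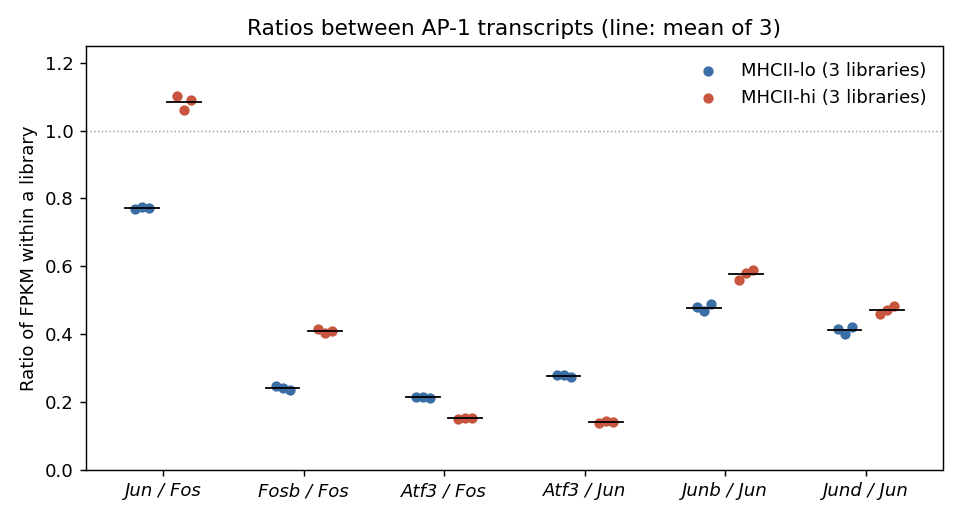
Ratio of FPKM between AP-1 transcripts of the same library, 1 point per library and a line at the mean of 3, with a dotted line at equal levels. Jun to Fos crosses 1 between MHCII-lo (0.772) and MHCII-hi (1.08), and both Atf3 ratios are lower in MHCII-hi.

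The 3 Jun transcripts together rose 1.69-fold, from 786 ± 14.1 to 1325 ± 10.1 FPKM, and the 3 Fos transcripts 1.26-fold, from 685 ± 3.51 to 863 ± 8.27 FPKM (SD, n = 3). The ratio of summed Jun to summed Fos transcripts was 1.14, 1.14 and 1.16 in MHCII-lo against 1.53, 1.51 and 1.56 in MHCII-hi. Among the Jun transcripts, Jun itself fell from 52.9 ± 0.557% to 48.9 ± 0.650%, while Junb rose from 25.3 ± 0.254% to 28.2 ± 0.420% and Jund from 21.8 ± 0.313% to 22.97 ± 0.261%. Among the Fos transcripts, Fos fell from 78.6 ± 0.388% to 69.1 ± 0.267% and Fosb rose from 18.97 ± 0.344% to 28.3 ± 0.321%. The groups did not overlap for any of these shares.

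The 9 transcripts summed to 1600 ± 17.6 FPKM in MHCII-lo against 2294 ± 9.79 FPKM in MHCII-hi, which was 0.522 ± 0.00503% and 0.688 ± 0.00278% of all FPKM. Of that sum, Fos held 33.7% in MHCII-lo against 26.0% in MHCII-hi, and Atf3 7.19% and 3.94%. Jun held 26.0% and 28.2%, Junb 12.4% and 16.3%, Jund 10.7% and 13.3%, and Fosb 8.13% and 10.6%. Fosl2, Batf and Maff together were the remainder, at 1.02%, 0.483% and 0.400% in MHCII-lo. The share of Fosl2 overlapped between groups, and those of the other 8 did not.

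**Figure D4:**
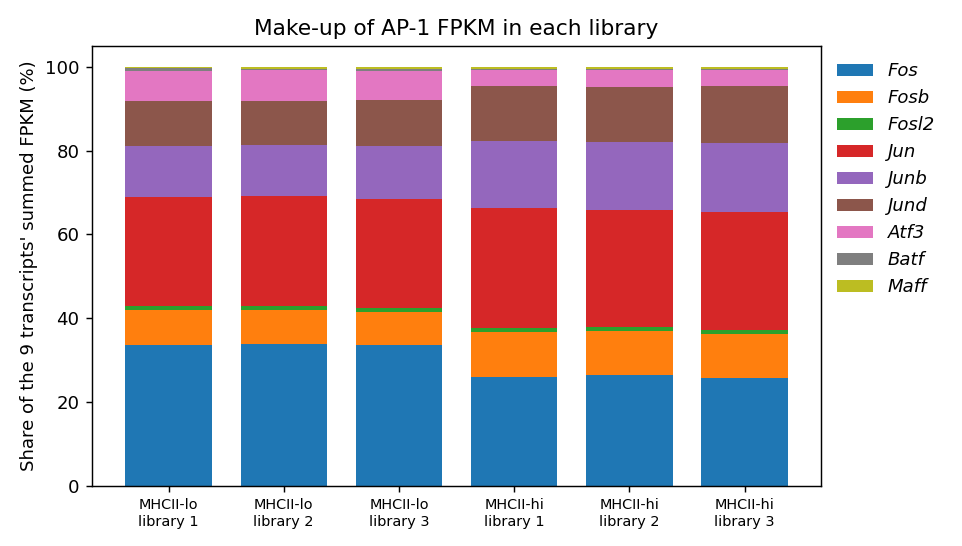
Share of each transcript in the summed FPKM of the 9 AP-1 transcripts, in percent, 1 bar per library. The blue Fos segment is near 34% in the 3 MHCII-lo bars and near 26% in the 3 MHCII-hi bars, while the Fosb, Junb and Jund segments are wider in MHCII-hi.

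In the wider bZIP family, 28 of 31 relatives were tested. Of these, 14 were called higher and 6 lower (against 27.2% and 40.5% of all tested genes), with a median log2 change of 0.13. The largest increase after that of Bach2 was in Fosl1 (Fra-1), a Fos protein outside the 9, with 1.48, 1.33 and 1.39 FPKM in MHCII-lo against 7.73, 6.77 and 7.12 FPKM in MHCII-hi. Its change of 1.77 ± 0.06 (SE; limma adjusted p = 8.22e-07) was above that of each of the 9, from a low level. Bach2, a B cell repressor that competes for AP-1-like elements, rose from 0.900 ± 0.131 to 6.12 ± 0.306 FPKM (SD, n = 3). Maf rose from 0.620 to 1.45 FPKM. Bach2 and Maf reached the minimum through MHCII-hi alone, and without them 12 of 26 relatives were higher. Cebpg fell from 14.96 to 8.61 FPKM. Batf2 and Batf3, the nearest relatives of Batf, were below the minimum and not tested.

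Upstream of AP-1 stand the MAP kinase cascades and the factors that act on the serum response element. Of 26 tested genes of this kind, 16 were higher and 7 lower (against 27.2% and 40.5% of all tested genes). Their median log2 change was 0.18, with a range of -0.48 to 0.65. Mrtfa, a coactivator of serum response factor, rose from 14.1 to 22.6 FPKM, Mapk3 (ERK1) from 49.3 to 71.9 FPKM and Mef2d from 25.3 to 33.3 FPKM. Mapkapk2, a kinase downstream of p38, fell from 115 to 82.5 FPKM. Genes that limit AP-1 signalling or the life of its mRNA or protein were mostly higher: of 20 tested, 13 rose and 3 fell, with a median of 0.39. Among them Zfp36l1, an mRNA decay factor, rose 3.36-fold, its relative Zfp36 2.16-fold, and the MAP kinase phosphatases Dusp10 and Dusp5 2.79-fold and 2.39-fold.

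Partners that bind composite elements with AP-1 included the largest change in the AP-1-related lists. Irf4, a partner of Batf in lymphocytes and a plasma cell factor, rose 9.01-fold, from 2.22 ± 0.174 to 20.003 ± 0.720 FPKM (SD, n = 3; limma adjusted p = 8.19e-08). Irf8, the other IRF partner of Batf, fell from 51.9 to 40.8 FPKM. Ets2, Ets1 and Nfatc1 rose 1.95-fold, 1.81-fold and 1.83-fold. In all, 13 of 17 partner genes were higher and 2 lower (against 27.2% and 40.5% of all tested genes), with a median of 0.50. Of 29 tested genes known from the literature as AP-1 targets, 18 were higher and 8 lower, with a median of 0.48. The gelatinase Mmp9 rose 2.61-fold, the chemokine Ccl3 1.995-fold, Hmox1 1.95-fold and Prdm1 3.47-fold, the last from under 1 FPKM to only 2.20 FPKM, so that it was tested through MHCII-hi alone. Txn1, which fell from 170.3 to 91.9 FPKM, had the largest decrease among them.

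**Figure D5:**
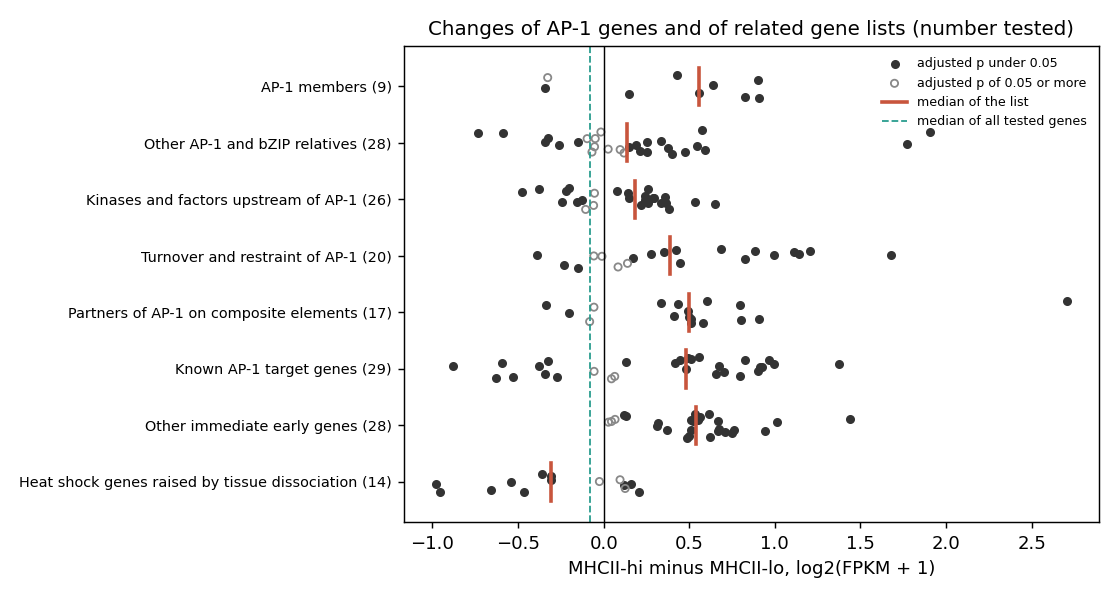
Log2 change of every tested gene in the AP-1 set and in 7 related lists, 1 point per gene, filled where the limma adjusted p is under 0.05. Red bars mark list medians and the dashed line the median of all tested genes (-0.08). The medians of the AP-1 set (0.56) and of other immediate early genes (0.54) are the highest and that of heat shock genes (-0.31) the lowest.

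Of 28 tested immediate early genes outside the AP-1 family, 25 were higher, none was lower and 3 did not pass (Mcl1, Id1 and Cdkn1a), with a median log2 change of 0.54 and the lowest, that of Mcl1, at 0.03. Egr1, a zinc finger factor, rose 2.74-fold from 67.4 to 184 FPKM, Nr4a1 2.04-fold to 114 FPKM, Klf2 1.71-fold to 116 FPKM, and Egr3 3.89-fold to only 1.81 FPKM. Egr2, Egr3 and Nr4a3 reached the minimum through MHCII-hi alone, and without them 22 of 25 were higher. Heat shock genes, which are also reported to rise during tissue dissociation, moved in both directions. Of 14 tested, 8 were lower, 3 higher and 3 did not pass (Hspa1b, Dnajb4 and Bag3), with a median of -0.31. Of all tested genes, 40.5% were lower and 27.2% higher. Hspe1 fell from 67.8 to 33.9 FPKM, Hspd1 from 192 to 98.8, Hsp90aa1 from 289 to 183 and Hsph1 from 21.6 to 14.5 FPKM. The 3 that rose were the inducible Hspa1a, from 6.26 ± 0.448 to 7.36 ± 0.1498 FPKM, its cochaperone Dnajb1, from 33.9 ± 1.15 to 36.99 ± 0.637 FPKM, and Hsf1, the heat shock transcription factor, from 5.04 ± 0.225 to 5.76 ± 0.366 FPKM (SD, n = 3; limma adjusted p = 0.0112, 0.0113 and 0.0340). The labels give no time or temperature of handling, and the part of sorting or handling in the AP-1 values was not tested.

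Markers of several blood lineages moved with the groups, and their part in the AP-1 changes was not tested. The counts below stand against 27.2% of all tested genes called higher and 40.5% called lower. Of 15 B cell markers 13 were tested and 13 were higher, with a summed FPKM of 411 to 469 in MHCII-lo against 7764 to 7904 in MHCII-hi. Of 10 tested plasma cell markers 10 were higher, with sums of 122 to 134 and 1827 to 1850. Of 15 neutrophil markers 10 were higher and 4 lower, with sums of 17351 to 17406 and 23268 to 23586 FPKM. The 4 lower were all genes of early neutrophils (Elane, Mpo, Prtn3 and Ctsg). Of 16 tested monocyte, macrophage and dendritic cell markers 7 were higher and 8 lower, with sums of 1066 to 1097 and 795 to 803. Of 14 T and NK cell markers 10 were higher and 3 lower, with sums of 244 to 246 and 263 to 278. Of 11 erythroid markers none was higher and 10 were lower, with sums of 724 to 746 and 526 to 546. Mast cell, basophil and eosinophil markers summed to 2280 to 2300 and 2433 to 2434 FPKM, with 6 of 9 tested higher and 1 lower, and megakaryocyte markers to 23.1 to 24.9 and 31.8 to 34.9 FPKM, with 3 of 6 tested higher. No marker of these lists was at 0 in all 6 libraries. Some markers averaged under 1 FPKM in MHCII-lo and were tested only because they were high in MHCII-hi, so that they could pass in that direction alone: Ms4a1, Ebf1 and Fcmr among B cell markers, C1qa, C1qb and C1qc among macrophage markers, 3 plasma cell, 2 T cell and 2 megakaryocyte markers. Without them, 10 of 10 B cell, 7 of 7 plasma cell, 8 of 12 T and NK cell and 1 of 4 megakaryocyte markers were higher, and of 13 monocyte, macrophage and dendritic cell markers 4 were higher and 8 lower.

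The stem cell label was checked on 15 markers, whose FPKM summed to 46.2 to 46.9 in MHCII-lo against 75.8 to 79.1 in MHCII-hi, far below the neutrophil sum. Of these, 8 were tested, 5 were higher and none lower (3 of 6 without those that reached the minimum through MHCII-hi alone), among them Ly6a, Gata2 and Hlf. Over all tested genes the shares were 27.2% higher and 40.5% lower. Slamf1, Procr, Mecom, Fgd5, Hoxb5, Ctnnal1 and Cdkn1c averaged under 1 FPKM and were not tested. The libraries thus hold abundant transcripts of differentiated lineages, and which cells carried the AP-1 transcripts was not measured.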

How the data were processed

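Poly(A) RNA-seq was deposited for 3 MHCII-lo and 3 MHCII-hi libraries, whose group is the labels' cell subtype. The tools in the submitters' processing notes are fastp, HISAT2 and StringTie, with GRCm38 and mm10 as builds; the sources used here give no versions or settings. The deposited values have no unit in the file headers. They were read as FPKM, scaled by the authors to library size and transcript length, because they have decimals and StringTie writes FPKM. The totals, near-equal within each group (means of 306496 in MHCII-lo and 333432 in MHCII-hi), do not settle the unit. FPKM depends on all other transcripts of a library, so abundant transcripts that rise lower the rest. Repeated symbols (67, with 70 extra rows) were kept for the row of highest mean. Coordinates are from GENCODE M21 and promoters from RefSeq; all 9 members matched both. The older symbols Mkl1, Rfwd2 and Cyr61 were read as Mrtfa, Cop1 and Ccn1.

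Genes averaging 1 FPKM or more were tested with limma 3.58.1 in R 4.3.3 on log2(FPKM + 1), by a linear model with a mean-variance trend, two-sided, with Benjamini-Hochberg adjustment over 12295 genes. Changes on this scale understate those of low genes, and an n-fold change is a ratio of mean FPKM. SE is limma's moderated standard error. Lists were described by counts and medians, without a set test. The members and lists were chosen with earlier results of these data known. All 9 members are named, and from each other list up to 4 genes past the threshold, without overlap of the groups, that changed most. Others named (Irf8, Hspa1a, Dnajb1, Hsf1, Txn1, the genes completing a count, and the genes below the minimum) were chosen after their values were seen. Some genes that the rules take are not reported here. Genes most like Fos and Atf3 were the 5 with the smallest root mean square distance among genes of at least 10 FPKM. The fit was tested on simulated data. Alternatives were other pseudocounts, filters and scalings, no trend, a block for the replicate number, and the omission of each library; the removal of a trend on transcript length was added after seeing the data. Python 3.11.15, pandas 2.3.3, numpy 2.4.6 and matplotlib 3.10.9 were used for tables and figures.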

Additional observations from a re-analysis of the deposited data

How the results depend on the processing

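Over 16 alternatives the 9 members kept their direction. The calls of Fosb, Fosl2, Jun, Junb, Jund, Atf3 and Maff held in all 16, with log2 changes of 0.89 to 0.998 for Fosb, 0.41 to 0.52 for Fosl2, 0.55 to 0.75 for Jun, 0.89 to 1.04 for Junb, 0.81 to 1.004 for Jund, -0.36 to -0.20 for Atf3 and 0.52 to 0.68 for Maff. Fos ranged from 0.01 with quantile normalization, where its call was lost, to 0.28 with the trend on transcript length removed. Batf ranged from -0.41 to -0.14 and was called only without MHCII-hi library 2. The count of members called higher was therefore 6 or 7 and that called lower 1, or 1 to 2 when a library was left out. Over all tested genes, 3348 were higher and 4982 lower. With the minimum raised to 5 FPKM, 2210 were higher, but of only 7491 tested, a share of 29.5% against 27.2%; the share was 33.3% with median-of-ratios scaling. Leaving out a library gave 3040 to 3198 higher and 4519 to 4791 lower. The median of the monocyte, macrophage and dendritic cell markers, -0.05, changed sign to 0.073 without a filter, to 0.035 with median-of-ratios scaling, to 0.033 with the length trend removed and to 0.017 when immunoglobulin and mitochondrial genes were left out of the scaling; the cause was not tested.

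Same-numbered libraries' deviations from their group means correlated at 0.06, 0.00 and 0.08 across genes. Libraries of unlike number gave -0.09 to 0.03. Much of the spread within groups may be counting error, so these values cannot tell whether the replicate numbers pair the libraries. With the replicate number as a block, 7 members were higher and 1 lower, and 3222 genes were higher and 4809 lower. Depth is known only from the steps in the lowest values, and the transcripts near 1 FPKM rest on few fragments.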

Other observations

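Among 4799 other genes averaging 10 FPKM or more, those whose profile over the 6 libraries lay nearest to that of Fos were Vsir, Abi1, Ythdc1, Os9 and Tmub2. Their root mean square distances were 0.00771 to 0.0155 on the log2 scale. Vsir, the gene of the immune checkpoint protein VISTA, had 72.8 ± 0.356 FPKM in MHCII-lo against 80.7 ± 0.928 FPKM in MHCII-hi (SD, n = 3). Among those nearest to Atf3 were Msh6, Hk3, Emg1 and Mpo, at distances of 0.00752 to 0.0156. Msh6, a mismatch repair gene, had 22.4 ± 0.187 and 17.4 ± 0.391 FPKM, and Mpo, the myeloperoxidase of early neutrophils, 1389 ± 12.1 and 1105 ± 7.12 FPKM. With 2 groups whose libraries are so alike, this likeness is mainly an equal change between the groups.

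Maff had 3 annotated starts, and its windows held TGACGTCA 29 bases before one start and TGACATCA 45 bases before another, the same distance as TGACATCA has from the start of Jun. Jund and Fosl2 had none of the 6 motifs in their windows, while their changes were 0.83 and 0.43.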
